A study of Mus with 96 samples.

Results

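The mevalonate pathway genes described here are Acat2, Hmgcs1, Mvk, Pmvk, Mvd, Idi1 and Fdps, 7 of the 55487 genes counted in mouse liver. They were selected by name, as enzymes on the way from acetyl-CoA to farnesyl diphosphate, and were chosen by their genotype effect, which earlier analysis of these livers had shown. All 7 were among the 15548 genes with at least 100 counts over all libraries, the genes that were tested. Livers of 96 mice were measured, 4 at each of ZT 2, 6, 10, 14, 18 and 22 (hours after lights on) for each combination of genotype and diet. All mice carried Bmal1 alleles flanked by loxP sites (Bmal1flx/flx), were 8 to 10 weeks old and were of both sexes, 2 of each at every ZT except ZT14 in Hep-Bmal1WT on cdHFD, with 3 males and 1 female. Hep-Bmal1KO mice also carried a Cre recombinase driven by the albumin promoter (AlbCre/+), which acts in hepatocytes, so the other cells of the liver keep Bmal1, and Hep-Bmal1WT mice were littermates without Cre. For 2 weeks the mice ate normal chow (NC), with 14% fat, 27% protein and 59% carbohydrate, or a diet short of choline and rich in fat (cdHFD), with 60% fat, 9% protein, 31% carbohydrate and 2% cholesterol. The diets thus differed in several components together, and the effects of these cannot be told apart.

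The mevalonate pathway builds isoprenoids from acetyl-CoA in the cytosol, and in the liver most of its carbon leaves farnesyl diphosphate toward cholesterol, with side branches to dolichol, ubiquinone and prenylated proteins. Its genes are classical targets of the transcription factor SREBP2, which is held in the endoplasmic reticulum when sterols are plentiful and released when they are scarce. Acat2 (acetoacetyl-CoA thiolase) joins 2 acetyl-CoA and Hmgcs1 (HMG-CoA synthase) adds a further one. Mvk and Pmvk phosphorylate mevalonate in turn, Mvd removes a carboxyl group to give isopentenyl diphosphate, Idi1 isomerises it, and Fdps condenses the 5-carbon units to farnesyl diphosphate.

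In the RefSeq annotation of GRCm38.p6, the assembly of mm10, Acat2 (ENSMUSG00000023832) lies on chromosome 17 from 12943042 to 12960725, Hmgcs1 (ENSMUSG00000093930) on chromosome 13 from 119690351 to 119708260, and Mvk (ENSMUSG00000041939) on chromosome 5 from 114444264 to 114460591. Pmvk (ENSMUSG00000027952, 89454541 to 89469014) and Fdps (ENSMUSG00000059743, 89093588 to 89101967) share chromosome 3. Mvd (ENSMUSG00000006517) lies on chromosome 8 from 122433596 to 122443422 and Idi1 (ENSMUSG00000058258) on chromosome 13 from 8885606 to 8892396. The libraries read only the 3′ portion of each mRNA, so levels are compared between mice and not between genes. The paralog Acat3 ends 2447 bases before Acat2 and had 98925 counts in all libraries against 47469 for Acat2. How reads that match both were split is not given in the sources used here, and the values of Acat2 are uncertain to that extent. Idi1 was thinly covered, with 1000 counts in total and 32 of 96 libraries at 0, while no library was at 0 for the other 6 genes.

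Gene counts summed to 1861740 in the shallowest library and 9718615 in the deepest. Bmal1 itself, listed as Arntl, ranged from 0.210 to 26.05 CPM (counts scaled to a common library size, with TMM factors) in Hep-Bmal1WT and from 0.253 to 13.03 CPM in Hep-Bmal1KO livers on NC, so it was not absent in any group. Whether the 3′ reads lie outside the deleted part was not tested, and this gene is no check of the deletion. Each library was placed between the other libraries of both genotype labels at its diet and ZT, on 10 clock genes and on 20 other genes, and 7 of 96 lay nearer the other label on both sets. In Hep-Bmal1WT these were replicate 2 at ZT6 and replicate 4 at ZT18 on NC, and replicate 3 at ZT10 and replicate 1 at ZT14 on cdHFD. In Hep-Bmal1KO they were replicate 4 at ZT6 and replicate 3 at ZT10 on NC, and replicate 1 at ZT14 on cdHFD. No library was moved or left out, and the main diet, genotype and rhythm results are also given without these. Values at single ZTs, non-overlap counts, the difference between genotype effects, sex differences of single genes and correlations between mice are given with them only. The labelled sex fitted the levels of Xist and the Y-linked genes in 95 of 96 libraries, and the remaining one, labelled female, had low levels of both. The library names are a letter and a number, and all libraries with the same number had the same genotype and diet, so anything that goes with this number cannot be told apart from either. The mouse numbers in the labels formed a separate block for each ZT and diet. Whatever goes with these blocks cannot be told apart from ZT or diet. The hepatocyte markers Alb, Apoa1, Ttr, Serpina1a and Cps1 were detected in every library.

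The cdHFD lowered all 7 genes in both genotypes, at each of the 6 ZTs. This comparison asked how the pathway responds to the diet, and the diet effect itself was not used to choose the genes. Its NC livers also enter the genotype effect that chose them. The difference in fall between the genotypes is therefore not independent of that choice. In edgeR's quasi-likelihood test with ZT as a factor, 7 of 7 were lower on cdHFD at an adjusted p under 0.05 in Hep-Bmal1WT livers, where 27.3% of all genes were, and 7 of 7 in Hep-Bmal1KO livers, where 29.6% were. Of these, Idi1 was read almost only on NC and passed the count filter through the NC libraries alone. Its call and its lack of overlap between diets therefore add no support to these counts. The median log2 fold change of the 7 genes was -2.90 in Hep-Bmal1WT and -3.79 in Hep-Bmal1KO, against 0.0084 and 0.023 over all genes tested. Without the 7 libraries nearer the other label, the medians were -2.78 and -3.87. At every ZT and in both genotypes, all 4 cdHFD values of each gene lay under all 4 NC values, as they did at every ZT for 3% of all genes in Hep-Bmal1WT and 4.66% in Hep-Bmal1KO.

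For Acat2, which opens the pathway, Hep-Bmal1WT livers had a lowest value of 45.2, a median of 114 and a highest value of 180 CPM on NC, and 20.9, 32.8 and 49.1 CPM on cdHFD (n = 24 each). In Hep-Bmal1KO livers the corresponding values were 67.9, 166 and 253 CPM on NC and 12.2, 29.99 and 43.7 CPM on cdHFD. The ranges of the diets met only at their edges in Hep-Bmal1WT and did not overlap in Hep-Bmal1KO. The log2 fold change was -1.73 (SE 0.084, adjusted p = 1.1e-23) and -2.42 (SE 0.094, adjusted p = 1.6e-27). The neighbouring Acat3 was at 190 ± 44.7 and 119 ± 18.3 CPM on NC and cdHFD in Hep-Bmal1WT, and at 239 ± 45.5 and 112 ± 15.97 CPM in Hep-Bmal1KO (SD, n = 24 each).

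Hmgcs1 ranged from 157 to 1113 CPM on NC in Hep-Bmal1WT, with a median of 375, and from 37.4 to 82.4 CPM on cdHFD, with a median of 52.9. In Hep-Bmal1KO livers it ranged from 438 to 1400 CPM on NC, with a median of 729, and from 38.3 to 82.5 CPM on cdHFD, with a median of 48.9. No value on cdHFD reached a value on NC. Its log2 fold change was -2.90 (SE 0.17, adjusted p = 8.6e-21) in Hep-Bmal1WT and -3.85 (SE 0.11, adjusted p = 1.0e-32) in Hep-Bmal1KO.

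Both kinases fell, Mvk by 1.65 and Pmvk by 2.38 on the log2 scale in Hep-Bmal1WT (SE 0.11 and 0.12, adjusted p = 8.6e-18 and 1.4e-22). Mvk had a lowest value of 10.7, a median of 22.8 and a highest value of 46.3 CPM on NC, and 4.11, 7.60 and 14.1 CPM on cdHFD, so that its ranges overlapped. Pmvk had 21.8, 81.1 and 137 CPM on NC and 8.07, 13.7 and 22.5 CPM on cdHFD, overlapping only between 21.8 and 22.5 CPM. In Hep-Bmal1KO livers Mvk fell by 2.64 (SE 0.11), from a range of 18.2 to 83.8 CPM to one of 4.03 to 10.8 CPM. Pmvk fell by 2.75 (SE 0.12), from 39.4 to 153 CPM to 3.34 to 27.7 CPM. Neither gene overlapped between diets in that genotype (adjusted p = 4.3e-26 and 3.0e-26).

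Mvd and Idi1, the last enzymes before the condensation steps, were near the floor of the assay on cdHFD. Mvd had a lowest value of 7.53, a median of 20.6 and a highest value of 58.7 CPM on NC in Hep-Bmal1WT, and 1.80, 2.74 and 6.10 CPM on cdHFD. In Hep-Bmal1KO livers it had 17.4, 41.7 and 108 CPM on NC and 0.977, 3.02 and 6.02 CPM on cdHFD. The log2 fold change of Mvd was -3.02 (SE 0.17, adjusted p = 1.1e-20) in Hep-Bmal1WT and -3.79 (SE 0.14, adjusted p = 5.6e-28) in Hep-Bmal1KO, with no overlap in either.

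Idi1 was read in every NC library, with 306 counts in Hep-Bmal1WT and 670 in Hep-Bmal1KO, and hardly at all on cdHFD. Its NC values had a lowest value of 0.860, a median of 2.17 and a highest value of 5.56 CPM in Hep-Bmal1WT, and 1.68, 5.29 and 8.25 CPM in Hep-Bmal1KO, while the highest cdHFD values were 0.345 and 0.269 CPM. On cdHFD, 18 of 24 Hep-Bmal1WT libraries and 14 of 24 Hep-Bmal1KO libraries had no read, the group totals were 8 and 16 counts, and no library had more than 3. The pooled rate on NC was 56.9-fold that on cdHFD in Hep-Bmal1WT (exact 95% interval 28.5 to 133) and 68.5-fold in Hep-Bmal1KO (41.8 to 120), intervals that cover counting error only. The fitted log2 fold change, -5.22 (SE 0.35) and -5.79 (SE 0.25), depends on the prior count of the fit. No p-value is given for it, since Idi1 passed the count filter through the NC libraries alone.

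Fdps, at the end of the segment, had a lowest value of 122, a median of 253 and a highest value of 499 CPM on NC in Hep-Bmal1WT, and 11.7, 22.5 and 48.03 CPM on cdHFD. In Hep-Bmal1KO livers it had 176, 453 and 744 CPM on NC and 15.6, 20.2 and 62.1 CPM on cdHFD. Its ranges were apart in both genotypes, and its log2 fold change was -3.53 (SE 0.13, adjusted p = 9.5e-29) and -4.19 (SE 0.13, adjusted p = 5.0e-31). Counted over the pathway, 4 of 7 genes in Hep-Bmal1WT (Hmgcs1, Mvd, Idi1 and Fdps) and 7 of 7 in Hep-Bmal1KO had all 24 cdHFD values under all 24 NC values. Of all genes tested, 1.54% and 2.55% did so. Idi1 is in both counts of the pathway although it passed the count filter through the NC libraries alone. As these NC livers also enter the genotype effect, the higher count in Hep-Bmal1KO is not independent of the choice of the genes.

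**Figure D1:**
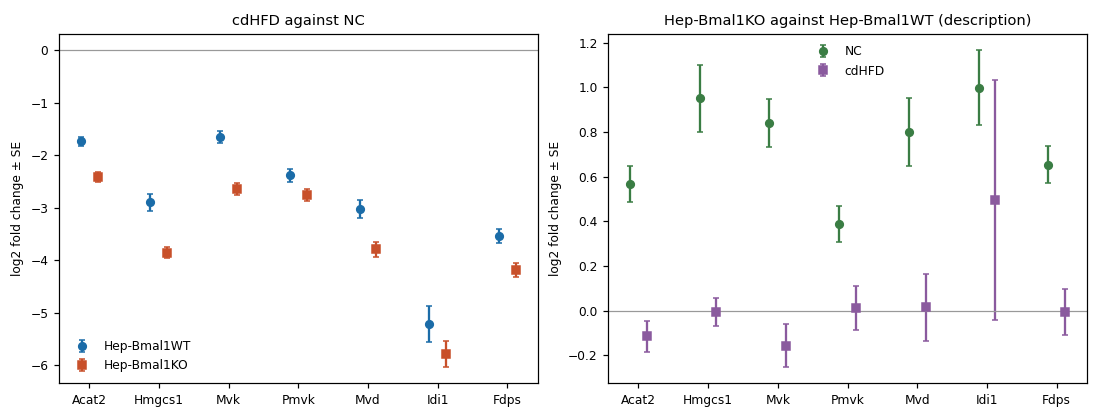
Log2 fold change ± SE of each gene from edgeR, for cdHFD against NC within each genotype (left) and for Hep-Bmal1KO against Hep-Bmal1WT within each diet (right, a description without test). On the left every point lies below 0, from -1.65 for Mvk to -5.79 for Idi1, and on the right the NC points lie between 0.39 and 0.998 and the cdHFD points, apart from the thinly read Idi1, between -0.16 and 0.014.

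The levels of cell type markers moved with the diet as well. The 5 hepatocyte markers were all lower on cdHFD, with a median log2 fold change of -1.13 in Hep-Bmal1WT and -1.18 in Hep-Bmal1KO. Their summed level ran from 91547 to 207169 CPM on NC and from 53456 to 90309 CPM on cdHFD in Hep-Bmal1WT, and from 77959 to 210319 and from 47875 to 83670 CPM in Hep-Bmal1KO. All 5 macrophage markers were higher, from 113 to 280 CPM summed on NC and from 454 to 1150 CPM on cdHFD in Hep-Bmal1WT, and from 95.8 to 297 and 525 to 1078 CPM in Hep-Bmal1KO. All 5 markers of stellate cells and fibroblasts were higher too, from 168 to 358 and 474 to 991 CPM in Hep-Bmal1WT, and from 151 to 379 and 471 to 1430 CPM in Hep-Bmal1KO. Of the other lists, 4 of 5 lymphocyte and neutrophil markers were higher in Hep-Bmal1WT and 3 in Hep-Bmal1KO, 2 and 3 of 4 cholangiocyte markers were higher, and 2 of 4 endothelial markers were higher and 1 lower in both. No marker was at 0 in all libraries. The part of these shifts in the fall of the pathway was not tested, and in bulk tissue fewer cells of a type and less RNA per cell cannot be told apart. The medians of the pathway genes were -2.90 and -3.79, and what their difference from the hepatocyte markers reflects was not tested.

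The neighbouring steps of sterol synthesis were read beside the pathway. From squalene to cholesterol, 12 of 12 genes were lower on cdHFD in both genotypes, with a median log2 fold change of -2.50 in Hep-Bmal1WT and -3.24 in Hep-Bmal1KO. The largest falls were those of Sqle (squalene epoxidase), at -4.72 (SE 0.17) and -5.06 (SE 0.13), and Tm7sf2 (a sterol reductase), at -4.17 (SE 0.089) and -4.88 (SE 0.092). Ebp (a sterol isomerase), among those with a smaller fall, was at -1.57 (SE 0.050) and -1.85 (SE 0.061). Among 5 genes around the acetyl-CoA supply, 4 were lower in Hep-Bmal1WT and 3 in Hep-Bmal1KO, with medians of -0.18 and -0.28. Acss2 (acetyl-CoA synthetase) was at -3.06 (SE 0.11) and -3.64 (SE 0.12) and Acly (ATP citrate lyase) at -1.97 (SE 0.10) and -2.21 (SE 0.14).

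Of the 11 genes of the branch from farnesyl diphosphate to prenylated products, 4 were higher and 2 lower on cdHFD in Hep-Bmal1WT, and 3 were higher and 2 lower in Hep-Bmal1KO, with medians of 0.060 and 0.035. Of all genes tested, 28.4% were higher in Hep-Bmal1WT and 32.4% in Hep-Bmal1KO, so the counts of this list lay near those of all genes. Fntb, the beta subunit of farnesyltransferase, rose by 0.80 (SE 0.16, adjusted p = 4.0e-05) and 0.62 (SE 0.12, adjusted p = 2.3e-05), and Rce1, a protease of prenylated proteins, by 0.39 (SE 0.081) and 0.30 (SE 0.076). Icmt, which methylates them, fell by 0.41 (SE 0.073) and 0.26 (SE 0.082), and Pdss2, a subunit that makes the ubiquinone side chain, was at -0.21 (SE 0.11, adjusted p = 0.12) and -0.50 (SE 0.089, adjusted p = 2.6e-06). Among 6 genes of SREBP2 control, 4 were lower and 1 higher in Hep-Bmal1WT, and 5 were lower and 1 higher in Hep-Bmal1KO, with medians of -1.02 and -1.17. Insig1, an anchor of the SREBP complex and itself an SREBP target, was at -3.04 (SE 0.14) and -3.07 (SE 0.14), and Stard4, a sterol carrier, at -2.53 (SE 0.091) and -2.92 (SE 0.15). Mylip, a ubiquitin ligase of lipoprotein receptors induced by sterol-activated nuclear receptors, rose by 1.10 (SE 0.13, adjusted p = 5.2e-10) and 1.44 (SE 0.11, adjusted p = 9.7e-16). Insig2, a second anchor, was at 0.39 (SE 0.19, adjusted p = 0.070) in Hep-Bmal1WT and fell by 0.33 (SE 0.13, adjusted p = 0.024) in Hep-Bmal1KO.

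**Figure D2:**
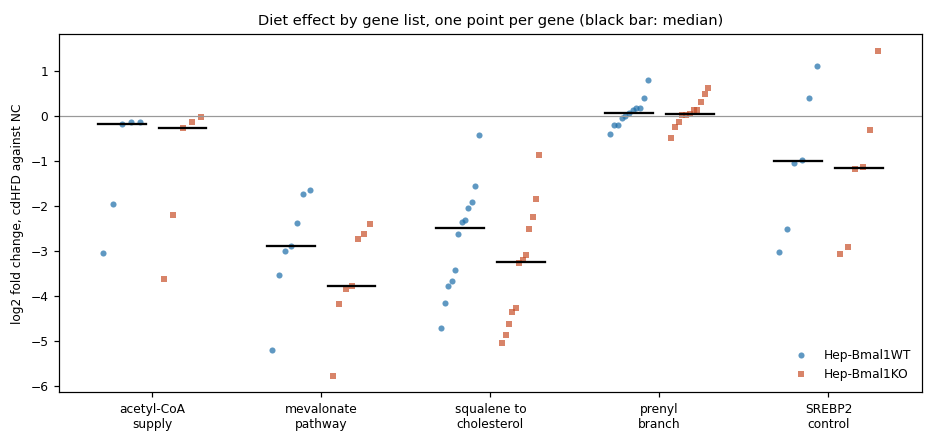
Log2 fold change of cdHFD against NC from edgeR, for each gene of 5 lists in Hep-Bmal1WT (circles) and Hep-Bmal1KO (squares), with the median of each list as a bar. The mevalonate pathway (medians -2.90 and -3.79) and the steps from squalene to cholesterol (-2.50 and -3.24) lie below 0 throughout, while the prenyl branch is spread around 0 (0.060 and 0.035).

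The genotype effect is given as a description without test, since the genes were chosen by it, and calls for them are not counted. On NC all 7 genes were higher in Hep-Bmal1KO livers. The log2 fold change was 0.57 (SE 0.079) for Acat2, 0.95 (SE 0.15) for Hmgcs1, 0.84 (SE 0.11) for Mvk and 0.39 (SE 0.082) for Pmvk. It was 0.80 (SE 0.15) for Mvd, 0.998 (SE 0.17) for Idi1 and 0.65 (SE 0.084) for Fdps. The ranges of the genotypes overlapped on NC for every gene when all ZTs were pooled, as the values given above for each gene show. On cdHFD, 0 of 7 were past the threshold, also 0 at an unadjusted p under 0.05 (22% of all genes) and 0 with DESeq2, where 4.75% of all genes were higher in Hep-Bmal1KO in edgeR. The log2 fold changes on cdHFD were -0.11 (SE 0.070) for Acat2, -0.0066 (SE 0.063) for Hmgcs1, -0.16 (SE 0.097) for Mvk, 0.012 (SE 0.099) for Pmvk, 0.014 (SE 0.15) for Mvd and -0.0060 (SE 0.10) for Fdps. For Idi1 it was 0.50 (SE 0.54), a value that the 8 and 16 counts on cdHFD cannot fix.

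In the order of levels, Hep-Bmal1KO on NC stood highest and Hep-Bmal1WT on NC next for each gene, with both cdHFD groups far below. The ranges of the cdHFD groups overlapped for every gene over the pooled ZTs. At ZT22, however, all 4 Hep-Bmal1KO values lay under all 4 Hep-Bmal1WT values for Mvk (means of 4.60 and 7.76 CPM) and Acat2 (29.4 and 33.7 CPM). The means of the cdHFD groups were 32.7 ± 7.85 and 30.1 ± 7.45 CPM for Acat2, 53.7 ± 11.4 and 53.04 ± 11.04 CPM for Hmgcs1, and 23.9 ± 8.69 and 23.9 ± 11.6 CPM for Fdps (SD, n = 24, Hep-Bmal1WT first). On NC the means of the same genes were 110 ± 30.03 and 166 ± 54.3, 431 ± 261 and 791 ± 272, and 276 ± 90.6 and 447 ± 150 CPM. The difference between the genotype effects, cdHFD minus NC on the log2 scale, was -0.68 (SE 0.11) for Acat2, -0.96 (SE 0.17) for Hmgcs1, -0.999 (SE 0.15) for Mvk and -0.38 (SE 0.13) for Pmvk. For Mvd it was -0.78 (SE 0.22), for Idi1 -0.52 (SE 0.93) and for Fdps -0.66 (SE 0.14).

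From squalene to cholesterol, 10 of 12 genes were higher in Hep-Bmal1KO on NC at an adjusted p under 0.05 in edgeR (median 0.57). So were 2 of 5 of the acetyl-CoA supply, with 1 lower, 1 of 11 of the prenyl branch and 1 of 6 of SREBP2 control. Of all genes tested, 7.08% were.

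The genotypes on NC were farthest apart at different hours for different genes. For Hmgcs1 the ratio of means, Hep-Bmal1KO over Hep-Bmal1WT, was 2.91 at ZT14 and 1.04 at ZT6. At ZT14 the 4 Hep-Bmal1WT livers had 169, 177, 217 and 223 CPM, and the 4 Hep-Bmal1KO livers had 438, 608, 614 and 627 CPM. For Mvk and Mvd the ratio was also highest at ZT14, at 2.13 and 2.41, and for Pmvk it was at most 1.403, at ZT14 too. For Acat2 and Idi1 it was highest at ZT22, at 1.80 and 3.95, and for Fdps at ZT2, at 1.89.

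The libraries nearer the other label bear on these values. On NC at ZT18, the library labelled Hep-Bmal1WT replicate 4 had 623 CPM of Hmgcs1, against 157 to 245 CPM in the other 3 with that label and 539 to 949 CPM in those labelled Hep-Bmal1KO. At ZT6, replicate 2 of that label had 499 CPM of Fdps, against 228 to 348 CPM in the other 3. Without the 7 libraries, the log2 fold changes on NC were 0.63 for Acat2, 1.15 for Hmgcs1, 0.91 for Mvk, 0.43 for Pmvk, 0.90 for Mvd, 1.10 for Idi1 and 0.76 for Fdps. On cdHFD the median was -0.0060 with them and -0.014 without. Among the markers of cell types on NC, 1 of 5 hepatocyte markers was lower and 1 of 4 cholangiocyte markers higher in Hep-Bmal1KO at an adjusted p under 0.05, and the summed hepatocyte markers had a median of 150416 CPM in Hep-Bmal1WT and 102480 CPM in Hep-Bmal1KO. On cdHFD, 4 of 5 stellate and 2 of 4 cholangiocyte markers were higher and 2 of 5 hepatocyte markers and 1 of 5 macrophage markers lower in Hep-Bmal1KO. The part of either in the genotype values was not tested.

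The level of several pathway genes differed between ZTs, each of which had its own blocks of mouse numbers. Acat2, Pmvk and Fdps had their lowest mean at ZT10 in all 4 groups. Rhythm was tested in each group of 24 livers with a cosine and a sine term of 24 hours in edgeR, a comparison that asks whether the genes follow the day without hepatocyte Bmal1 and on cdHFD. On NC, 3 of 7 genes were rhythmic at an adjusted p under 0.05 in Hep-Bmal1WT (Hmgcs1, Pmvk and Fdps), where 18.7% of all genes were. In Hep-Bmal1KO 5 of 7 were (Hmgcs1, Mvk, Pmvk, Mvd and Fdps), where 4.34% were. On cdHFD, 3 of 7 were rhythmic in Hep-Bmal1WT (Acat2, Pmvk and Fdps), against 14.3% of all genes, and 1 of 7 in Hep-Bmal1KO (Fdps), against 3.81%. Leaving out 1 mouse of every ZT left 1 to 3 of the calls on NC in each genotype, 2 to 3 in Hep-Bmal1WT on cdHFD, and 0 to 1 in Hep-Bmal1KO on cdHFD. Without the libraries nearer the other label the counts were 3, 4, 4 and 0 in the same order. The difference in rhythm between genotypes was not tested.

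**Figure D3:**
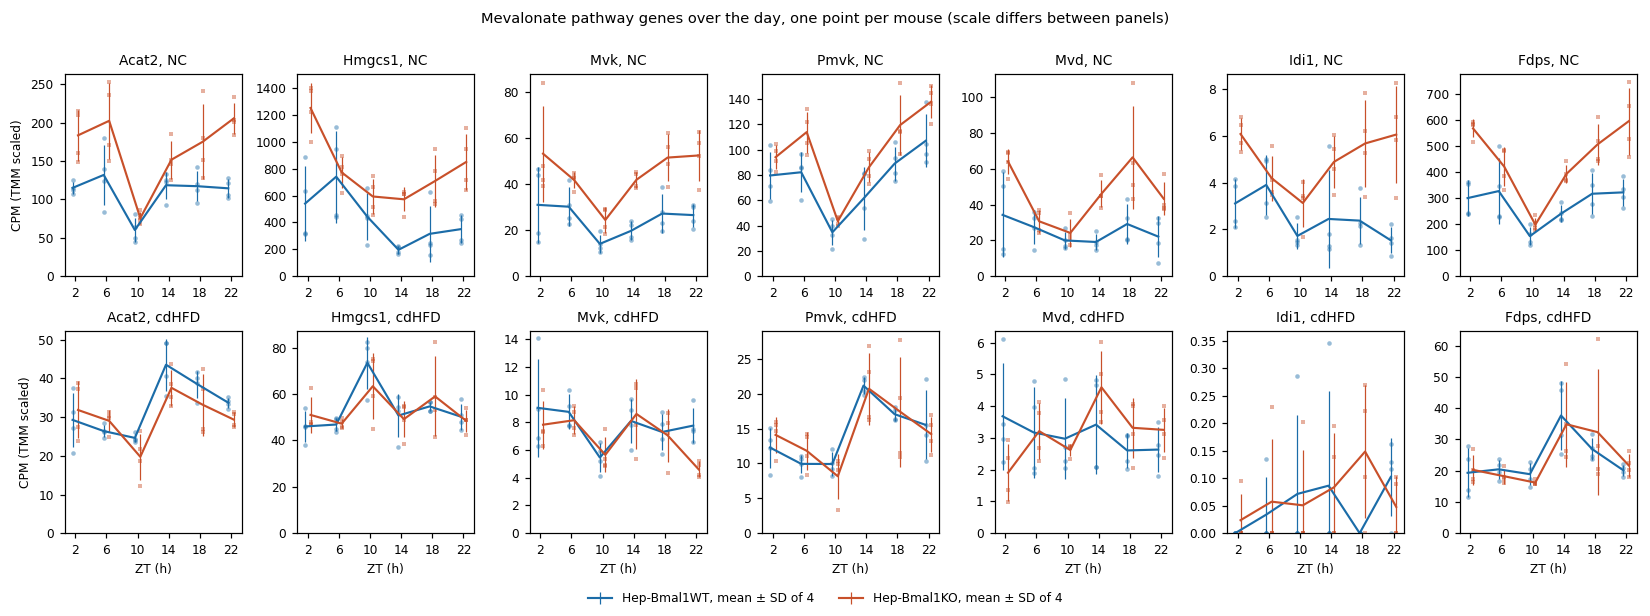
CPM against ZT for each gene on NC (top) and cdHFD (bottom), with 1 point per mouse and the mean ± SD of 4 mice, circles for Hep-Bmal1WT and squares for Hep-Bmal1KO. All cdHFD points lie under the NC points at the same ZT and genotype, and Acat2, Pmvk and Fdps rise from ZT10 to ZT14 in every group.

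Pmvk was past the threshold in 3 of the 4 groups. On NC in Hep-Bmal1WT it had its lowest mean at ZT10, where the mice had 21.8, 32.4, 39.7 and 44.8 CPM, and its highest at ZT22, with 90.1, 96.3, 104 and 137 CPM. The values of the ZTs did not overlap, and the fitted amplitude on log2 CPM was 0.65 (SE 0.14) with a peak at 22.6 h (SE 0.81, adjusted p = 0.0052). In Hep-Bmal1KO the same ZTs had the lowest and the highest mean, 43.5 and 138 CPM, with an amplitude of 0.58 (SE 0.12) and a peak at 22.1 h (SE 0.76, adjusted p = 0.015), a call kept in 1 of 4 fits without 1 mouse per ZT (adjusted p from 0.048 to 0.104). On cdHFD in Hep-Bmal1WT the trough stayed at ZT10, at 9.93 CPM, but the highest mean was at ZT14, at 21.2 CPM, and the fitted peak was at 17.5 h (amplitude 0.49, SE 0.093, adjusted p = 0.00095). In Hep-Bmal1KO on cdHFD the means at the same ZTs were 8.16 and 20.7 CPM, and the rhythm was not past the threshold (adjusted p = 0.15). With ZT as a factor of 6 levels, which takes any profile, Pmvk was past it in all 4 groups (adjusted p = 0.00091, 1.1e-06, 0.00017 and 0.022 in edgeR, for Hep-Bmal1WT and Hep-Bmal1KO on NC, then on cdHFD). That test called 21.1%, 13.2%, 20.3% and 13.3% of all genes in the same order.

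Fdps was past the threshold in all 4 groups, although on NC in Hep-Bmal1WT only narrowly (adjusted p = 0.0498). There it had its lowest mean at ZT10 (154 ± 34.9 CPM) and its highest at ZT6 (327 ± 127 CPM, SD, n = 4), and without a mouse of each ZT the adjusted p ran from 0.038 to 0.16. Without the libraries nearer the other label it was 0.0083. In Hep-Bmal1KO on NC the trough was at ZT10 as well, with 176, 186, 196 and 234 CPM, and the highest mean at ZT22, with 456, 525, 655 and 744 CPM. The amplitude was 0.66 (SE 0.095) and the peak was at 22.4 h (SE 0.55, adjusted p = 0.00066), and the gene was called in each of the 4 fits without 1 mouse per ZT. On cdHFD the highest mean was at ZT14 in both genotypes, 37.7 ± 10.97 and 34.9 ± 13.5 CPM, and the fitted peaks were at 15.4 h (SE 1.049, adjusted p = 0.014) and 17.1 h (SE 1.18, adjusted p = 0.035). Without the libraries nearer the other label the second adjusted p was 0.0501, and without 1 mouse per ZT the calls held in 1 of 4 fits each.

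The hours of Hmgcs1, the second enzyme, are given next. On NC in Hep-Bmal1WT its highest mean was at ZT6, with 442, 457, 948 and 1113 CPM, and its lowest at ZT14, with 169, 177, 217 and 223 CPM. The amplitude was 0.77 (SE 0.18) with a peak at 4.47 h (SE 0.89, adjusted p = 0.0055). In Hep-Bmal1KO the highest mean was at ZT2, with 1251 ± 184 CPM, and the lowest at ZT14, with 572 ± 89.8 CPM (SD, n = 4), the peak was at 1.20 h (SE 0.70) and the adjusted p was 0.0031. Both calls were kept in 3 of 4 fits without 1 mouse per ZT, with adjusted p up to 0.083 and 0.053. On cdHFD it was highest at ZT10, at 73.5 ± 11.2 CPM in Hep-Bmal1WT and 63.4 ± 14.2 CPM in Hep-Bmal1KO. Its rhythm was not past the threshold there (adjusted p = 0.093 and 0.66), though in Hep-Bmal1WT a fit with ZT as a factor gave an adjusted p of 0.0031.

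Acat2 had its lowest mean at ZT10 in all 4 groups. The 4 mice had 45.2, 50.3, 64.5 and 80.6 CPM at ZT10 and 92.4, 123, 126 and 133 CPM at ZT14 on NC in Hep-Bmal1WT, so the hours were apart. The means at ZT10 and ZT14 were 75.7 and 152 CPM on NC in Hep-Bmal1KO, 24.6 and 43.5 CPM on cdHFD in Hep-Bmal1WT, and 19.7 and 37.6 CPM on cdHFD in Hep-Bmal1KO, again without overlap. A single cosine found a rhythm only in Hep-Bmal1WT on cdHFD (amplitude 0.35, SE 0.067, peak at 17.6 h, adjusted p = 0.0020), while the adjusted p was 0.35, 0.060 and 0.40 in Hep-Bmal1WT on NC, Hep-Bmal1KO on NC and Hep-Bmal1KO on cdHFD. With ZT as a factor, Acat2 was past the threshold in all 4 groups, with adjusted p of 0.0020, 0.00013, 0.00036 and 0.023 in edgeR (Hep-Bmal1WT and Hep-Bmal1KO on NC, then on cdHFD).

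With a single cosine, Mvk and Mvd were past the threshold in Hep-Bmal1KO livers on NC and in no other group. With ZT as a factor, the adjusted p of Mvk was 0.046 and 0.0050 on NC and 0.18 and 0.044 on cdHFD, and that of Mvd 0.51 and 0.00059 on NC and 0.85 and 0.082 on cdHFD (Hep-Bmal1WT first, edgeR). Mvk was lowest there at ZT10, at 24.4 ± 5.44 CPM, and highest at ZT2, at 53.1 ± 20.8 CPM, with an amplitude of 0.46 (SE 0.10) and a peak at 22.0 h (adjusted p = 0.022), and 1 of 4 fits without a mouse per ZT called it. In Hep-Bmal1WT on NC its adjusted p was 0.071 with a similar fitted amplitude of 0.41 (SE 0.15) and peak at 23.8 h. Mvd in Hep-Bmal1KO was lowest at ZT10, at 24.2 ± 7.89 CPM, and highest at ZT18, at 66.4 ± 28.8 CPM (SD, n = 4), with a peak at 20.9 h (adjusted p = 0.030). That call was lost in each of the 4 fits without 1 mouse per ZT (adjusted p from 0.066 to 0.21) and without the libraries nearer the other label (0.084). In Hep-Bmal1WT on NC Mvd was uneven among mice of the same hour. At ZT2 the males had 12.6 and 15.2 CPM and the females 50.5 and 58.7 CPM, while at ZT6 the sexes overlapped. Idi1 had an adjusted p of 0.43 in Hep-Bmal1WT and 0.096 in Hep-Bmal1KO on NC, and on cdHFD, with 8 and 16 counts over the day, a rhythm was not detectable at this depth.

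**Figure D4:**
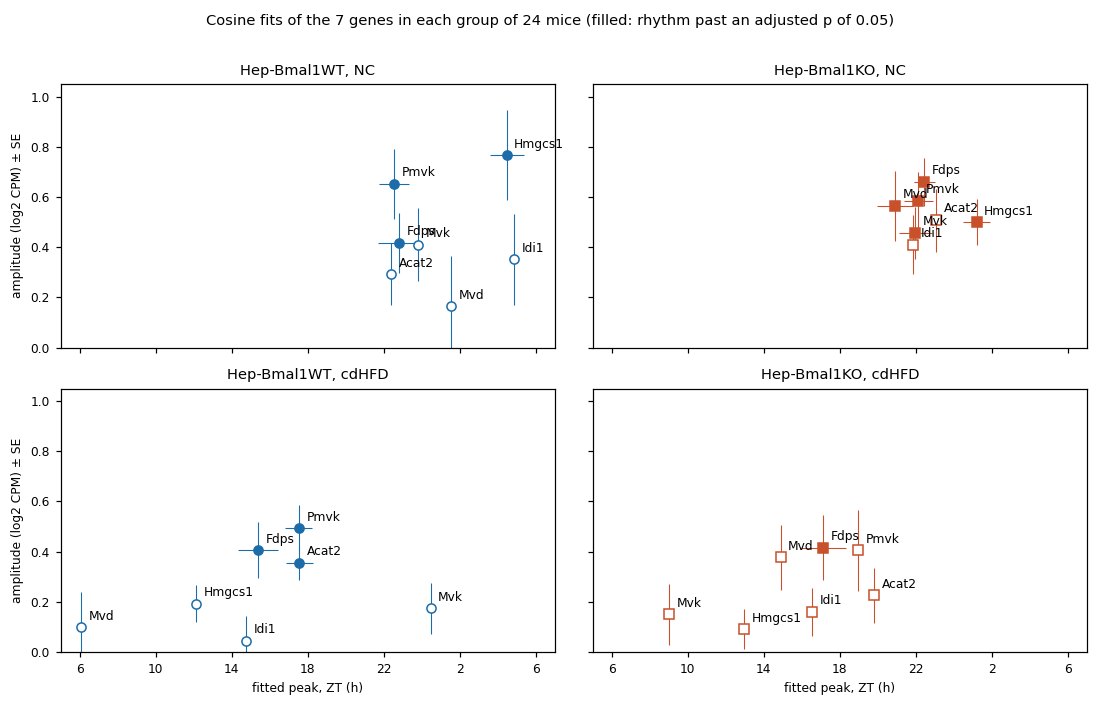
Fitted amplitude on log2 CPM (± SE) against fitted peak hour for each gene in each group of 24 mice, filled where the rhythm passed an adjusted p of 0.05 and with the SE of the peak drawn for those. On NC the filled points lie from 20.9 h through ZT0 to 4.47 h, and on cdHFD from 15.4 to 17.6 h.

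By hour, the lowest mean was at ZT10 for 4 of 7 genes in Hep-Bmal1WT and 6 of 7 in Hep-Bmal1KO on NC, and for 4 and 3 of 7 on cdHFD. The highest mean was at ZT14 for 3 of 7 genes in Hep-Bmal1WT and 5 of 7 in Hep-Bmal1KO on cdHFD, and for none on NC. The summed hepatocyte markers did not dip at ZT10, with a median of 147490 CPM there and 117415 to 134000 CPM at the other ZTs on NC. On cdHFD the median was 70635 CPM at ZT10 and 58123 to 74960 CPM at the other ZTs. Library totals at ZT10 had a median of 5479549 counts on NC, the lowest of the 6 ZTs, and 6230585 on cdHFD. The part of depth in the ZT10 values was not tested.

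Whether the daily profile differed between diets was tested with the terms of diet by cosine and sine. In Hep-Bmal1WT 3 of 7 genes differed, Hmgcs1 (adjusted p = 0.0089), Pmvk (0.012) and Fdps (0.011), where 6.13% of all genes did. In Hep-Bmal1KO 2 of 7 differed, Hmgcs1 (adjusted p = 0.019) and Fdps (0.026), where 0.907% did. For Pmvk the fitted peak moved from 22.6 to 17.5 h between NC and cdHFD, and for Fdps from 22.8 to 15.4 h in Hep-Bmal1WT and from 22.4 to 17.1 h in Hep-Bmal1KO. For Hmgcs1 the amplitude was 0.77 on NC and 0.19 (SE 0.075) on cdHFD in Hep-Bmal1WT, and 0.50 (SE 0.091) and 0.091 (SE 0.080) in Hep-Bmal1KO. Leaving out 1 mouse of every ZT and group gave 0 to 3 such genes in Hep-Bmal1WT, and in Hep-Bmal1KO none in any of the 4 fits, with adjusted p from 0.063 to 0.12 for Hmgcs1 and from 0.077 to 0.22 for Fdps.

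Fdps was the gene that differed by sex, and it did so on cdHFD. In Hep-Bmal1WT the females had a lowest value of 11.7, a median of 19.5 and a highest value of 27.4 CPM (n = 11), and the males 14.9, 23.7 and 48.03 CPM (n = 13). In Hep-Bmal1KO the females had 15.6, 18.1 and 26.2 CPM and the males 15.7, 24.4 and 62.1 CPM (n = 12 each). The ranges overlapped, and the highest values were males in both genotypes. The log2 fold change, males against females, was 0.46 (SE 0.085, adjusted p = 0.00019 in edgeR with ZT and genotype as factors). The adjusted p of the same test reached 0.0501 without replicate 4 of every group, mostly females. Thus 1 of 7 genes was called on cdHFD, where 5.8% of all genes were. On NC Fdps was at 0.083 (SE 0.082, adjusted p = 0.55), and the diet effect did not differ between the sexes past the threshold, with 0.46 (SE 0.22, adjusted p = 0.33) in Hep-Bmal1WT and 0.35 (SE 0.21, adjusted p = 0.46) in Hep-Bmal1KO for diet by sex.

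On NC 0 of 7 genes differed by sex in edgeR, and 0 in DESeq2, where 18.1% of all genes did in edgeR, while 4 were under an unadjusted p of 0.05 with either tool, as were 29.2% of all genes in edgeR. These 4 were lower in males, Hmgcs1 with a log2 fold change of -0.29 (SE 0.14), Mvk with -0.21 (SE 0.10), Pmvk with -0.17 (SE 0.077) and Mvd with -0.29 (SE 0.14), with adjusted p from 0.13 to 0.17. The medians of Hmgcs1 were 455 CPM in females and 260 CPM in males in Hep-Bmal1WT, and 652 and 774 CPM in Hep-Bmal1KO (n = 12 each), and this difference between genotypes was not tested. On NC all 5 macrophage markers and all 4 endothelial markers were lower in males too, with medians of -0.45 and -0.35 on the log2 scale, and their part in these values was not tested. Diet by sex was past the threshold for 0 of 7 genes in both genotypes in edgeR, against 3.02% of all genes in Hep-Bmal1WT and 2.89% in Hep-Bmal1KO. At an unadjusted p under 0.05 there were 3 and 0, against 14.6% and 14.7% of all genes.

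The genes also moved together between mice of the same genotype, diet and ZT. Over the deviations of 96 libraries from the mean of their cell of 4, each gene correlated with the mean of the other 6 with a Pearson r from 0.48 for Idi1 to 0.63 for Hmgcs1, a description without test, since all values of a mouse share its library and depth. The r of Hmgcs1 was 0.92 within Hep-Bmal1KO on NC and 0.11 within Hep-Bmal1WT on cdHFD (n = 24 each). Of 21 pairs of genes, the lowest r was 0.20 and the highest 0.66. The libraries nearer the other label entered these correlations, and their part in them was not tested. The 5 other genes most like the mean of the pathway were Msmo1 and Cyp51 (sterol demethylation), Fdft1 (squalene synthase), Rdh11 (a retinol dehydrogenase) and Acss2, with r of 0.67, 0.63, 0.65, 0.64 and 0.63 (n = 96). Msmo1, Fdft1 and Rdh11 were each among the top 20 in 2 of the 4 groups, and Acss2 and Cyp51 in 1. Within Hep-Bmal1WT on cdHFD the r was 0.088 for Msmo1, -0.26 for Fdft1, -0.023 for Rdh11, 0.31 for Acss2 and 0.46 for Cyp51.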

How the data were processed

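Liver RNA of 96 mice was measured by BRB-seq, which barcodes each sample and reads the 3′ portion of mRNA. Per the labels and the study's methods, the authors aligned reads to mm10 with STAR, name HTSeq and featureCounts for counting, and deposited raw counts per gene. Whether reads of the same molecule were collapsed is not given in the sources used here. Between 22.6% and 39.9% of reads lay in entries that name no gene, which were left out. Groups came from the labels, and replicate numbers only name mice. In most groups the males were numbered before the females, so leaving out a replicate number removed mostly mice of a single sex.

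In R 4.3.3, genes with at least 100 counts over all libraries were tested with edgeR 4.0.16 (TMM, quasi-likelihood, Benjamini-Hochberg over the 15548 genes). Log2 CPM had a prior count of 2, and cosine fits were by least squares with delta-method SE. p-values measure the spread between mice. DESeq2 1.42.0, other size factors, filters, covariates and left-out mice were alternatives. Genes of other lists were named by the largest and smallest diet effect in Hep-Bmal1WT, 2 each. The members and lists were chosen with earlier results of these data known. Some genes of these lists are not reported here. No promoter or protein sequence was used. The tests were checked on simulated data.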

Additional observations from a re-analysis of the deposited data

Results flagged for a closer look

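Within the cells of 4 mice, 12 of the 166 sets of values tested held a value far from the other 3 by Dixon's criterion, or 7.23%. For continuous values chance gives about 1 in 20, a rate that does not apply to the 6 sets of Idi1 below with 3 values at 0. On NC, Hmgcs1 was low in Hep-Bmal1KO replicate 1 at ZT14 (438 CPM, the others 608 to 627), Mvd high in Hep-Bmal1KO replicate 4 at ZT22 (56.99 CPM, the others 37.7 to 40.01), Idi1 high in Hep-Bmal1WT replicate 4 at ZT14 (5.56 CPM, the others 1.15 to 1.79) and Fdps low in Hep-Bmal1KO replicate 1 at ZT2 (515 CPM, the others 579 to 591). On cdHFD, Hmgcs1 was high in Hep-Bmal1KO replicate 1 at ZT2 (62.5 CPM, the others 46.8 to 47.9) and Mvd low in Hep-Bmal1KO replicate 4 at ZT10 (2.33 CPM, the others 2.69 to 2.74). The other 6 were Idi1 on cdHFD, each a single library with a read beside 3 at 0, with 0.135, 0.286 and 0.345 CPM at ZT6, ZT10 and ZT14 in Hep-Bmal1WT and 0.0946, 0.229 and 0.203 CPM at ZT2, ZT6 and ZT10 in Hep-Bmal1KO.

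The daily profile differed between NC and cdHFD in edgeR's test of diet by cosine and sine for Hmgcs1 (adjusted p = 0.0089), Pmvk (0.012) and Fdps (0.011) in Hep-Bmal1WT, and for Hmgcs1 (adjusted p = 0.019) and Fdps (0.026) in Hep-Bmal1KO.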

How the results depend on the processing

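The diet effect held for 7 of 7 genes in both genotypes under every alternative run, though Idi1 passed the count filter through NC alone. The median diet effect in Hep-Bmal1WT was -2.54 in males alone, and from -3.002 to -2.71 with a replicate left out (-3.87 to -3.65 in Hep-Bmal1KO). The median genotype difference ran from 0.66 to 0.93 on NC and from -0.090 to 0.044 on cdHFD with a replicate left out. In males alone it was 1.04 on NC and 0.031 on cdHFD, and in females alone 0.64 and -0.051. Rhythm counts moved more. With ZT as a factor, 5 genes were called in Hep-Bmal1WT on NC and 4 in Hep-Bmal1KO on cdHFD, and the latter count was 0 in a cosinor F test and 0 without the libraries nearer the other label. With a replicate left out the counts ran from 1 to 3 in both genotypes on NC and from 0 to 1 in Hep-Bmal1KO on cdHFD, and for diet by rhythm from 0 to 3 in Hep-Bmal1WT and 0 to 0 in Hep-Bmal1KO, where 1 was left without the libraries nearer the other label. By sex on NC, 3 genes were called with no filter beyond 1 count and 1 without those libraries, and on cdHFD 0 to 1 with a replicate left out. No paired analysis was possible, since each library came from a different mouse and the labels name no pairs of mice.

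Over all genes, the genotype calls were 1948 on NC against 546 in females alone, and 1503 on cdHFD against 794 in males and 654 in females alone. The rhythm calls in Hep-Bmal1KO were 675 on NC against 330, 2055 and 1402, and 592 on cdHFD against 355, 2073 and 1318, with a cosinor F test, ZT as a factor and an unadjusted p under 0.01. Diet by rhythm in Hep-Bmal1KO gave 141 calls, 224 with sex as a covariate and 3 to 17 with a replicate left out. Leaving out a replicate gave 938 and 535 genotype calls at the lowest on NC and cdHFD, 1680 of 2814 and 389 of 902 sex calls, 1447 of 2907 and 155 of 675 rhythm calls on NC, 901 of 2231 and 159 of 592 on cdHFD, and 351 of 953 for diet by rhythm in Hep-Bmal1WT. Fewer mice enter those fits, and the mice left out were mostly of a single sex. Depth limits Idi1 on cdHFD.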
